A study of Homo sapiens with 24 samples.

Results

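HBL-1 is an established line of diffuse large B cell lymphoma of the activated B cell type, grown here in RPMI-1640 with 20% FCS, Pen/Strep and Plasmocin. The series measured total RNA by sequencing in cultures with 20 µM dimethyl fumarate (DMF) in DMSO and in control cultures with DMSO alone, at 6, 12, 24 and 48 h, with 3 libraries in each of 8 groups and 24 in all. The comparison described here is between the control cultures at 12 h and the control cultures at 6 h, which received the same vehicle and differ in their labels by the hour alone. It rests on 5 libraries, replicates 1 and 2 at 12 h and replicates 1 to 3 at 6 h, chosen by their titles; replicate 3 at 12 h, whose reads came mainly from short transcripts, was kept aside as a check. The labels do not say when the medium was last changed, nor whether replicates were separate cultures. A p-value thus measures the spread between libraries within groups, which may be technical. That spread was estimated from 22 libraries in 8 groups, not from these 5 alone. The 2 times were also 2 harvests, so that time in culture and anything else that differed between harvests cannot be told apart.

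A suspension culture of lymphoma cells uses up amino acids, glucose and serum lipids between feedings while its cells pass through the division cycle. Several transcript programs are known to follow such conditions. NRF2 drives genes against oxidants, MITF and TFE transcription factors drive lysosomal genes, ATF4 answers amino acid shortage, SREBP answers sterol shortage, serum and stress switch on the immediate early genes, and E2F drives the genes of DNA replication.

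The 12 h libraries held 31472814 and 40183395 counts, and the 6 h libraries 29988933, 23097873 and 32403460. Levels are given as CPM, counts scaled to a library of 1000000. B cell markers summed to 4094 and 4088 CPM at 12 h, against 3874 to 3885 CPM at 6 h. T and NK cell markers summed to 0.486 to 0.713 CPM at 12 h and 0.616 to 0.778 CPM at 6 h, mostly CD8A, with CD3G and CD2 at 0 in all 5 libraries. Myeloid markers summed to 3.60 and 4.39 CPM at 12 h and 4.38 to 5.17 CPM at 6 h. Of these CD68 had 2.75 to 3.71 CPM at 12 h and 3.35 to 4.13 CPM at 6 h, while S100A8 and S100A9 were at 0. The epithelial markers EPCAM and KRT8 had 1.52 to 2.53 CPM at 12 h and 1.28 to 3.08 CPM at 6 h. B cell markers thus far exceeded these at both times. Counts of the 2 libraries at 12 h differed with a chi-square of 6.36 per gene and those of the 3 libraries at 6 h with 2.21 to 3.27, against 30 to 41.1 between the times, so no library was a copy of another. PECAM1, listed among the epithelial and stromal markers and also made by B cells, had 39.2 to 44.6 CPM at 12 h and 24.5 to 27.3 CPM at 6 h.

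Of 21831 genes, 13606 passed the filter on low counts, and 5393 of these (39.6%) were called by edgeR's quasi-likelihood test at a Benjamini-Hochberg adjusted p under 0.05. At 12 h 2871 genes were higher (21.1%) and 2522 lower (18.5%) than at 6 h. The libraries of a group lay close together, so small differences were called: 305 called genes were at least 1.5-fold higher (2.24%) and 756 at least 1.5-fold lower (5.56%), while 64 were at least 2-fold higher (0.47%) and 385 at least 2-fold lower (2.83%). The larger changes were thus mostly decreases. These percentages are the background against which each gene group below is read.

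The gene with the largest decrease that was named by rule was MCOLN3, which encodes a calcium channel of endosomes and lysosomes (GRCh38 chr1:85018082-85048499, minus strand). It had 0.227 and 0.281 CPM at 12 h, against 2.27, 2.81 and 2.78 CPM at 6 h, a log2 fold change of -3.33 ± 0.25 (SE) with an edgeR adjusted p of 2.31e-10. COL4A2, a basement membrane collagen, had 0.194 and 0.281 CPM at 12 h and 2.50, 1.80 and 1.78 CPM at 6 h. Neither gene overlapped between the groups, which the rule that named them required and which held for 62.2% of all genes tested. ADGRB1, an adhesion receptor that binds phosphatidylserine, had 3.79 and 3.81 CPM at 12 h, against 31.8, 33.1 and 27.6 CPM at 6 h (log2 fold change -3.01 ± 0.11 (SE), adjusted p = 2.88e-16). GPSM1, a modulator of G proteins, fell by 2.85 on the log2 scale, and RAP1GAP, which switches off the small GTPase RAP1, fell by 2.45. CELF6, an RNA-binding protein, fell by 2.39, and DST, a cytoskeletal linker, by 2.25.

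The increases were smaller. ATP2A3 encodes the calcium pump of the endoplasmic reticulum that is typical of blood cells (chr17:3923870-3964464, minus strand). It had 117 and 120.4 CPM at 12 h, against 48.2, 51.3 and 46.3 CPM at 6 h, a log2 fold change of 1.29 ± 0.049 (SE) (adjusted p = 2.88e-16). FAM111B, a protease gene whose expression follows the division cycle, had 11.2 and 10.2 CPM at 12 h and 3.72, 3.47 and 4.50 CPM at 6 h (log2 fold change 1.44 ± 0.14 (SE)). ZBP1, a sensor of left-handed nucleic acid, rose by 1.31 on the log2 scale, CKMT2, a mitochondrial creatine kinase, by 1.25, ATP6V0E2, a subunit of the proton pump of lysosomes, by 1.24, and ZNF385A, a zinc finger protein, by 1.45. In each of these genes both 12 h libraries lay above all 3 libraries of 6 h, which the rule that named them required.

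**Figure D1:**
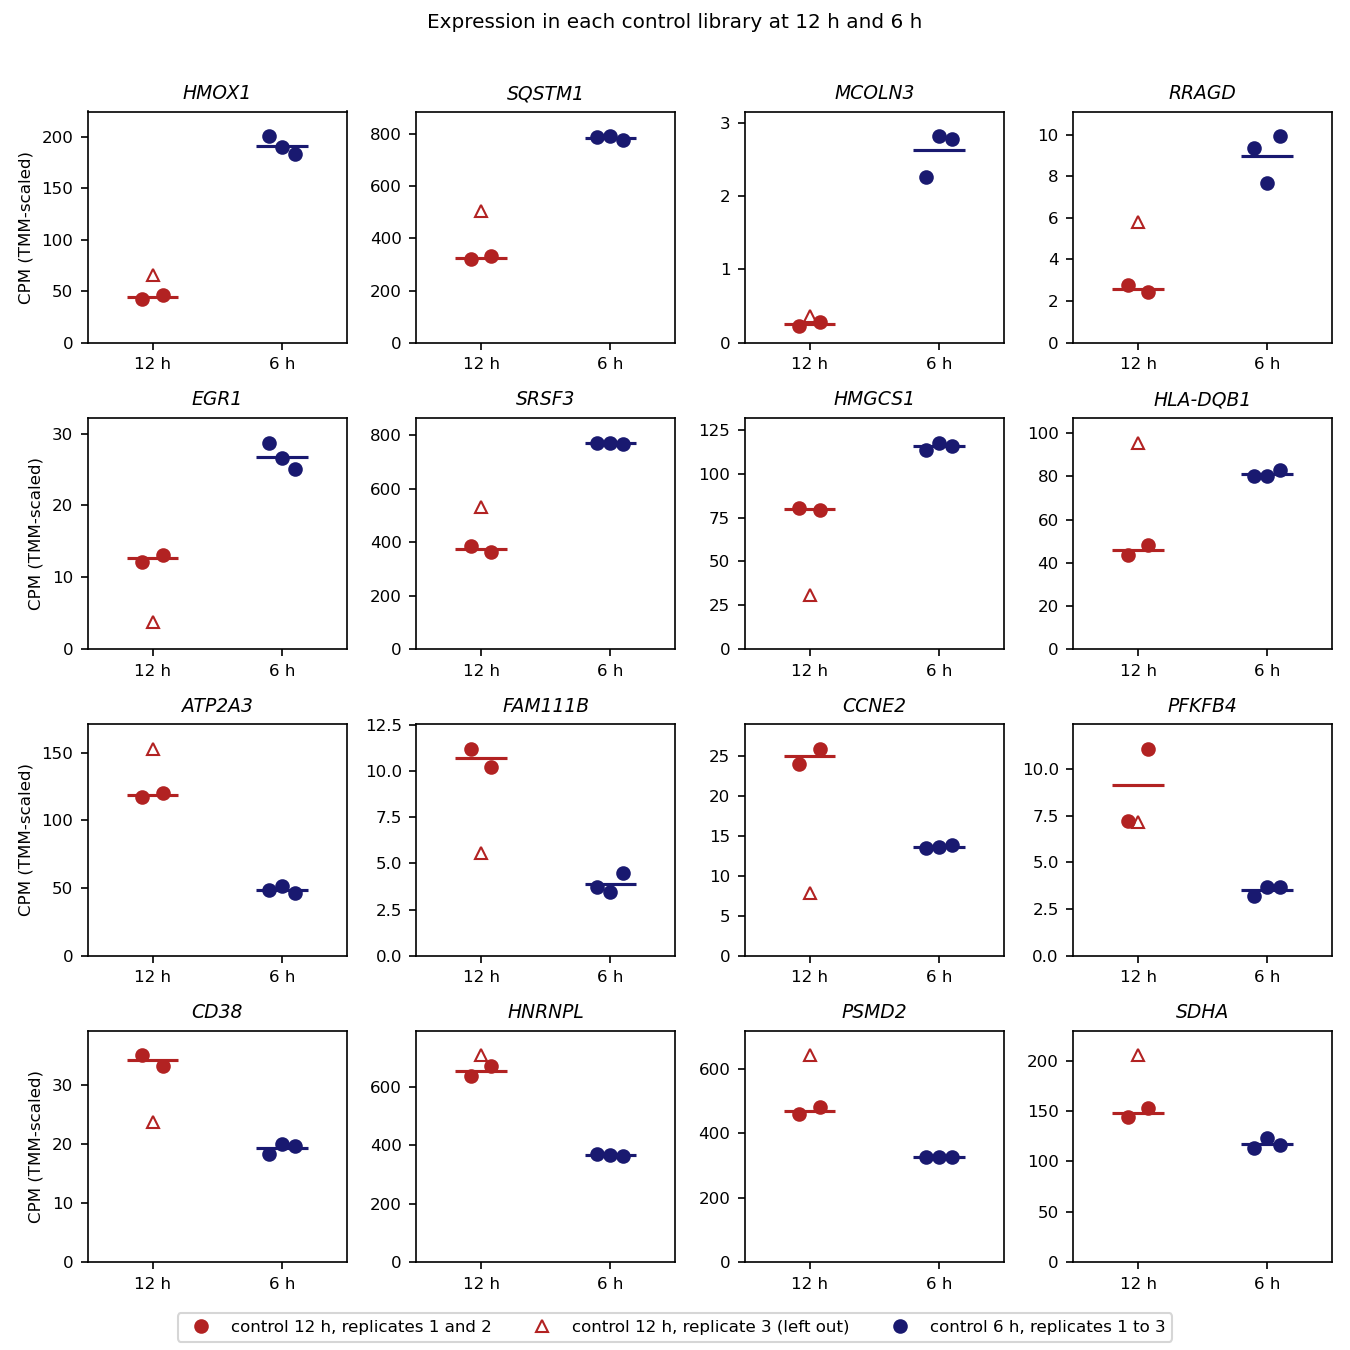
Expression of 16 genes in each control library in TMM-scaled CPM, with 12 h on the left and 6 h on the right of each panel; filled points are the libraries compared, lines are group means, and open triangles are replicate 3 at 12 h, scaled among all 24 libraries and left out of the comparison. In the first 8 panels both 12 h points lie below the 6 h points and in the other 8 above them, while the triangle falls on the other side of the 6 h points in CCNE2 and HLA-DQB1.

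Among genes of the NRF2 program more fell than rose at 12 h, and the largest decrease named was that of HMOX1, which breaks down heme. HMOX1 (chr22:35380361-35394214, plus strand) had 42.8 and 46.4 CPM at 12 h, against 200.4, 190.3 and 183 CPM at 6 h; it was 4.28-fold lower, with a log2 fold change of -2.10 ± 0.056 (SE) and an edgeR adjusted p of 3.21e-19. It stayed at 25.3 to 27.8 CPM at 24 h and 33.1 to 35.9 CPM at 48 h. SQSTM1, the autophagy receptor p62, had 319 and 331 CPM at 12 h and 787, 789.9 and 775 CPM at 6 h (log2 fold change -1.27 ± 0.047 (SE)), and the groups lay far apart. OSGIN1, an oxidative stress induced growth inhibitor, was low throughout, with 0.421 and 0.358 CPM at 12 h and 1.05, 0.792 and 1.06 CPM at 6 h. GCLC, the catalytic subunit for glutathione synthesis, fell by 0.65 on the log2 scale, and SRXN1, which repairs peroxiredoxins, by 0.54.

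Of 26 NRF2 targets tested, 13 fell and 6 rose, with a median log2 fold change of -0.17, beside a median of 0 over all genes tested. TXNRD1, thioredoxin reductase, fell by 0.26, whereas PRDX1, a peroxidase, rose by 0.24. The count of risen targets was 3 without replicate 3 at 6 h, and the count of fallen targets was 4 in the fit of all 24 libraries. The iron store genes FTL and FTH1 fell by 0.26 and 0.18; both have many pseudogene copies, so their counts are uncertain, and the call of FTH1 ended without either 12 h library. BACH1, the repressor that heme removes from HMOX1, fell by 0.29. Iron genes did not fall as a group: of 18 genes of iron handling tested, 6 rose and 4 fell, with a median of 0.047. Zinc-regulated genes were mostly lower, with 5 of 6 tested genes of metal storage and zinc export fallen. MT1F fell by 0.60, MT2A by 0.48, MT1X by 0.47, the zinc exporter SLC30A1 by 0.60 and the zinc sensor MTF1 by 0.28. The metallothionein genes are close copies of each other, and MTF1 lost its call without replicate 2 at 12 h or replicate 2 at 6 h.

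Lysosome and autophagy genes moved in both directions at 12 h, with the larger changes mostly decreases. RRAGD, a GTPase that tethers mTORC1 to lysosomes and a known target of TFE factors, had 2.75 and 2.43 CPM at 12 h, against 9.33, 7.70 and 9.92 CPM at 6 h (log2 fold change -1.81 ± 0.14 (SE), adjusted p = 4.04e-10); at 24 h it had 3.95 to 4.57 CPM and at 48 h 12.6 to 15.4 CPM. CTSA, a carboxypeptidase that protects lysosomal glycosidases, had 86.9 and 82.7 CPM at 12 h and 147, 144 and 144 CPM at 6 h. GM2A, the activator protein for ganglioside breakdown, fell by 0.87. RRAGD, GM2A, NPC2 and LAMP1 were chosen after their values were seen. RRAGD and GM2A are not in the list counted below. ATP6V0E2, the pump subunit named above, is not in that list either and rose by 1.24. GLA, the galactosidase lacking in Fabry disease, fell by 0.67, the autophagy receptor OPTN by 0.65, the cholesterol carrier NPC2 by 0.53 and the membrane protein LAMP1 by 0.34. Of 29 genes of the list tested, 13 fell (5 of them at least 1.5-fold), 8 rose (1 at least 1.5-fold) and 8 were not called. Their median log2 fold change was -0.10. SQSTM1 is counted here and among the NRF2 targets. Without replicate 1 at 12 h 5 rose, and in the fit of all 24 libraries 4 fell and 3 rose.

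The promoter of CTSA is shown because it held the motif CACGTG, the palindromic E-box core that TFE and MYC factors can bind, at 2 places, printed in capitals. The sequence is RefSeq's, build GRCh38.p14, chr20:45891085-45891384, plus strand, from 250 bases before to 50 after the gene's start.
CTSA: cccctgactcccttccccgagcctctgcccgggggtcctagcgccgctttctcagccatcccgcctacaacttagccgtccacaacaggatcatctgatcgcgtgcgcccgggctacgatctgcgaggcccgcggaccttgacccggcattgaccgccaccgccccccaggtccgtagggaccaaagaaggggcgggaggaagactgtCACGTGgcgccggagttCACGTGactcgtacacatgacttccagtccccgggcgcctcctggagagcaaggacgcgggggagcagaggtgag
The same motif stood in the promoters of 3 of 10 fallen lysosome and autophagy genes with a sequence in the table, CTSA, LAMP1 and ATP6V0D1, and in 10.3% of the 10259 promoters of all genes tested. A match in these letters is a description and not a measured site.

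Immediate early genes, which growth factors, antigen receptors and stress switch on within minutes, were lower at 12 h in 14 of 30 cases and higher in 1. EGR1 (chr5:138465490-138469315, plus strand), a zinc finger transcription factor, had 12.2 and 13.2 CPM at 12 h, against 28.7, 26.6 and 25.03 CPM at 6 h (log2 fold change -1.08 ± 0.14 (SE), adjusted p = 1.55e-06). At 24 h it had 27.9 to 40.9 CPM and at 48 h 66.1 to 77.5 CPM, so that 12 h was the lowest of the 4 times. EGR2 had 8.62 and 9.54 CPM at 12 h and 22.8, 19.3 and 19.3 CPM at 6 h (log2 fold change -1.17 ± 0.10 (SE)). EGR3 fell by 0.59, the phosphatase gene DUSP2 by 0.57, IER2 by 0.49, the orphan receptor NR4A1 by 0.51 and JUN by 0.33. Of 30 immediate early genes tested 14 fell, with a median log2 fold change of -0.28, and 1 rose. That 1 was ATF3, also a target of ATF4, with 6.48 and 6.60 CPM at 12 h and 4.80, 5.10 and 4.54 CPM at 6 h (log2 fold change 0.45 ± 0.10 (SE)). In the fit of all 24 libraries 6 fell.

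The EGR1 promoter is shown for its CArG boxes, the elements that serum response factor binds, in capitals. It is RefSeq's, build GRCh38.p14, chr5:138465229-138465528, plus strand.
EGR1: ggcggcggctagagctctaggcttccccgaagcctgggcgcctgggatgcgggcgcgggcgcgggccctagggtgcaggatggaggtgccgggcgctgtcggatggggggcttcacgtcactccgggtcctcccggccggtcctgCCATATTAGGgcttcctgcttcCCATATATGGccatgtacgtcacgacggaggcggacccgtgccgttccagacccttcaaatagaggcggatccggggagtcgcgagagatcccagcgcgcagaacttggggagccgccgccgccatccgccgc
It held 2 matches on these letters. EGR1 was the 1 of 12 fallen immediate early genes with a promoter in the table whose window held a CArG box, as did 1.01% of all promoters of genes tested. SRF, the factor itself, had 398 and 424 CPM at 12 h and 539.5, 559 and 539.9 CPM at 6 h (log2 fold change -0.41 ± 0.043 (SE)).

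Counts assigned to the 45S precursor of ribosomal RNA were lower in replicates 1 and 2 at 12 h. The copies of the 45S precursor summed to 294 and 370.3 CPM at 12 h, against 1055, 1084 and 1038 CPM at 6 h, and RNA45SN2, 1 of these near-identical copies, fell by 1.94 on the log2 scale. Replicate 3 at 12 h held 1504 CPM assigned to these copies, above all 3 libraries of 6 h. RNA45SN2 lost its call in the fit of all 24 libraries (log2 fold change -0.77, edgeR adjusted p = 0.162). How reads were shared among the copies is uncertain. Whether they came from the precursor or from mature rRNA, or followed library preparation, was not tested. All rRNA made up 0.720% and 0.725% of counts in replicates 1 and 2 at 12 h, 2.461% in replicate 3 and 1.004% to 1.087% at 6 h. Of 28 genes for ribosome assembly and RNA polymerase I, 10 fell and 3 rose, with a median of -0.093. POLR1C, a subunit shared by RNA polymerases I and III, fell by 0.39 and DKC1, the pseudouridine synthase of small nucleolar particles, by 0.30. BOP1, a large subunit assembly factor, rose by 0.30, GNL3 by 0.15 and WDR12 by 0.10. Without replicate 1 at 12 h 5 fell and 1 rose, the calls of GNL3 and WDR12 being lost, and 16 fell in a fit of the compared groups alone. Of 77 cytosolic ribosomal protein genes 75 were not called; RPS26 rose by 0.35, or by 0.17 and uncalled without replicate 1 at 12 h, and RPL12 fell by 0.19, both with many pseudogene copies.

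Splicing factor genes moved in opposite directions by family; these families were chosen after their values were seen. SR proteins, which promote splicing at weak exons, were lower: 8 of 11 SRSF genes fell and none rose, with a median of -0.25, and the other 3 were not called. SRSF3 (chr6:36594353-36605600, plus strand) had 386 and 365 CPM at 12 h, against 772, 772 and 767 CPM at 6 h (log2 fold change -1.04 ± 0.046 (SE), adjusted p = 6.49e-15). SRSF2 fell by 0.97, SRSF1 by 0.63, SRSF10 by 0.58 and SRSF7 by 0.48. Without replicate 2 at 12 h 5 of the SRSF genes were called lower. SFPQ, a nuclear speckle and paraspeckle protein, had 691 and 708 CPM at 12 h and 1408, 1379 and 1383 CPM at 6 h. MAT2A, the enzyme that makes the methyl donor S-adenosylmethionine and whose RNA is known to be retained unspliced when the donor is plentiful, fell by 0.99.

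Genes of the heterogeneous nuclear ribonucleoproteins, RNA-binding proteins that often oppose SR proteins, were higher: 15 of 22 rose and 1 fell, with a median of 0.21. HNRNPL had 638 and 674 CPM at 12 h, against 369, 367 and 365 CPM at 6 h (log2 fold change 0.84 ± 0.043 (SE), adjusted p = 1.21e-13). HNRNPH2 rose by 0.70 and HNRNPH3 by 0.65, while HNRNPC fell by 0.26. With all 24 libraries in the fit 5 rose. Several of these genes have processed copies in the genome, and counts per gene do not tell isoforms apart.

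Proteasome and mitochondrial genes rose by small and even amounts. Of 36 proteasome subunits 31 were higher at 12 h and none was lower, with a median log2 fold change of 0.31; this family too was chosen after its values were seen. PSMD2, a scaffold subunit of the regulatory particle, had 459 and 480.2 CPM at 12 h and 326, 326 and 328 CPM at 6 h (log2 fold change 0.52 ± 0.045 (SE)). The ATPase subunit PSMC5 rose by 0.46 and the catalytic subunit PSMB6 by 0.45. Of 30 nuclear genes of oxidative phosphorylation 21 rose and none fell, with a median of 0.23. SDHA, the flavoprotein of succinate dehydrogenase, had 144 and 152 CPM at 12 h and 113, 123 and 116 CPM at 6 h, NDUFS3 of complex I rose by 0.47, and the ATP synthase subunits ATP5F1B and ATP5F1A rose by 0.34 and 0.32. Of 49 MRPL genes, which encode the large subunit of the mitochondrial ribosome, 30 rose and none fell, with a median of 0.18; 18 rose without replicate 1 and 19 without replicate 2 at 12 h. MRPL41, 1 of these, rose by 0.44.

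**Figure D2:**
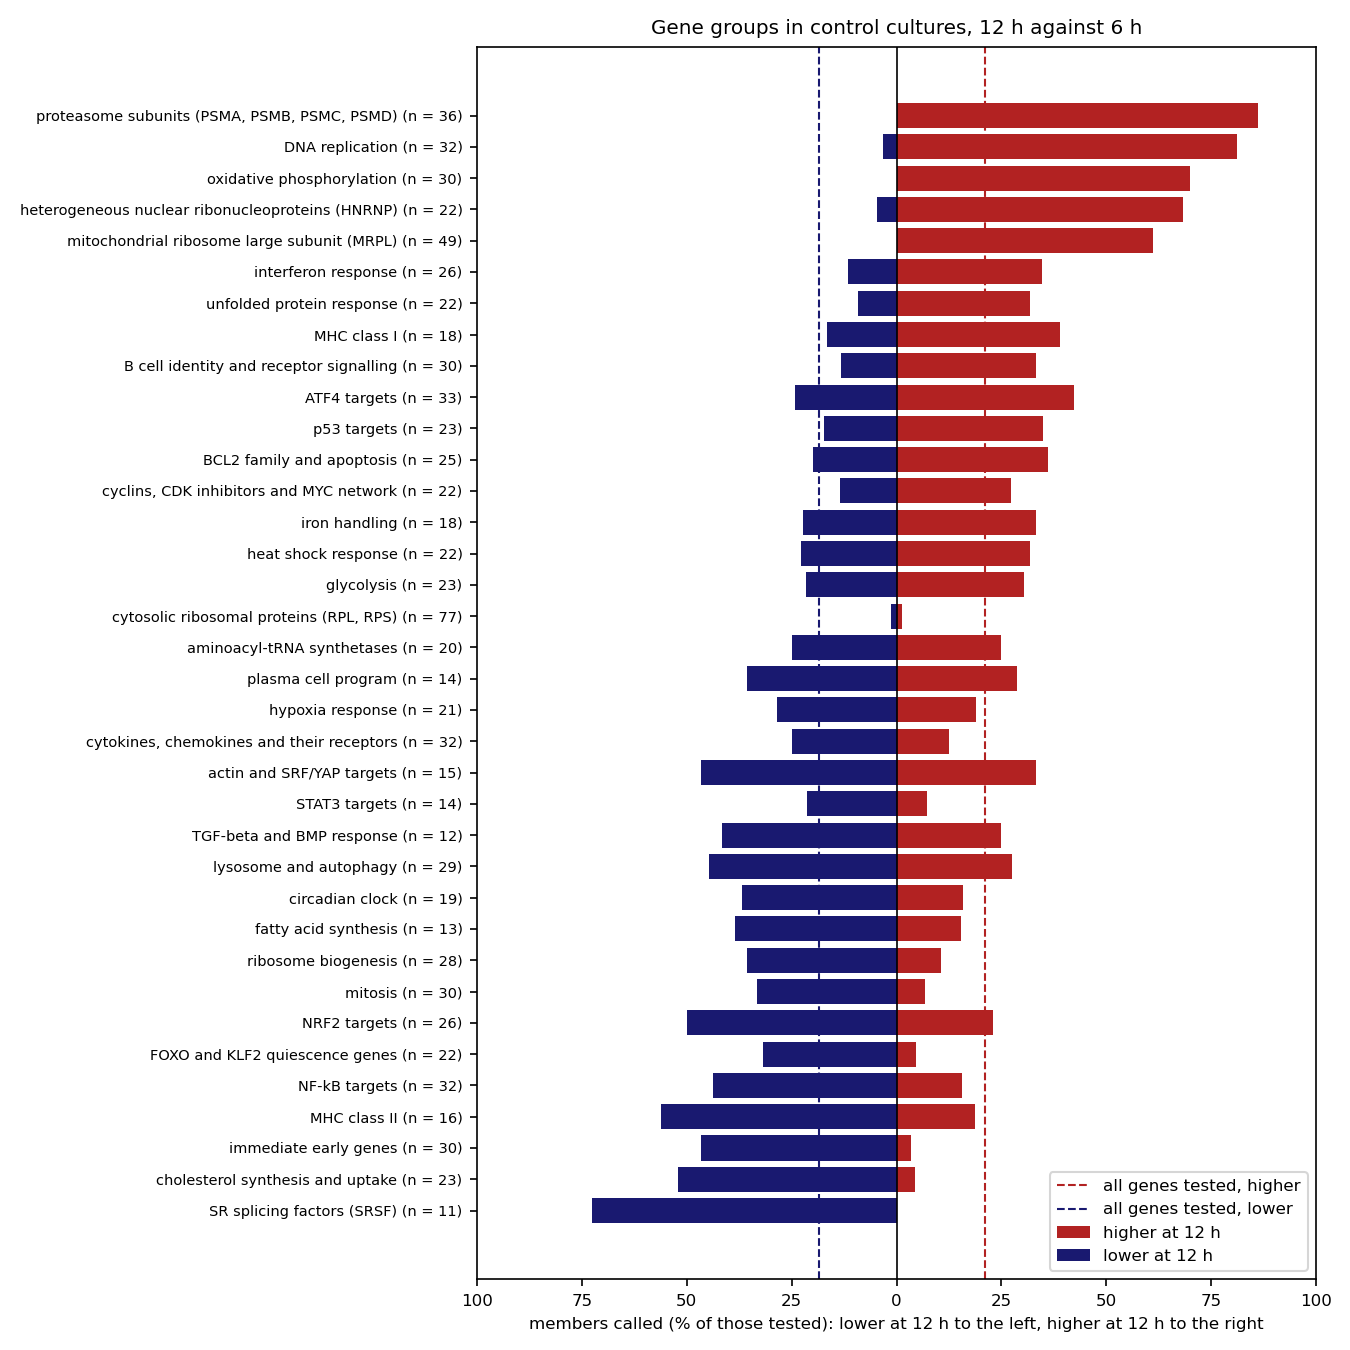
Share of tested members of each gene group that was called (adjusted p under 0.05), with those lower at 12 h than at 6 h to the left and those higher to the right; n is the number of members tested, groups of 10 or more are drawn, and dashed lines mark the shares among all 13606 genes tested (18.5% lower, 21.1% higher). Proteasome subunits, DNA replication and oxidative phosphorylation lie farthest to the right, and SR splicing factors farthest to the left.

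Most genes of DNA replication rose at 12 h. Of 32 replication genes 26 rose and 1 fell, with a median of 0.29. CCNE2, the cyclin that starts S phase with CDK2, had 24.05 and 25.9 CPM at 12 h, against 13.5, 13.6 and 13.9 CPM at 6 h (log2 fold change 0.87 ± 0.072 (SE), adjusted p = 9.10e-10); at 24 h it had 16.6 to 17.9 CPM and at 48 h 7.53 to 7.85 CPM, so that 12 h was the highest of the 4 times. CDC45, a subunit of the replicative helicase, had 76.3 and 68.2 CPM at 12 h and 47.3, 45.4 and 45.7 CPM at 6 h. The helicase subunits MCM3 and MCM2 rose by 0.41 and 0.13. GINS3 was the 1 that fell, by 0.21, a call that ended without replicate 2 at 12 h. In the fit of all 24 libraries 14 rose, and CCNE2 lost its call.

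Promoters of 3 risen replication genes are shown because each held an E2F element, searched as TTTCCCGC or TTTGGCGC on both strands and printed in capitals. They are RefSeq's, build GRCh38.p14, at chr6:52284693-52284992 (MCM3, minus strand), chr17:40287629-40287928 (CDC6, plus strand) and chr18:657403-657702 (TYMS, plus strand), each printed along its gene.
MCM3: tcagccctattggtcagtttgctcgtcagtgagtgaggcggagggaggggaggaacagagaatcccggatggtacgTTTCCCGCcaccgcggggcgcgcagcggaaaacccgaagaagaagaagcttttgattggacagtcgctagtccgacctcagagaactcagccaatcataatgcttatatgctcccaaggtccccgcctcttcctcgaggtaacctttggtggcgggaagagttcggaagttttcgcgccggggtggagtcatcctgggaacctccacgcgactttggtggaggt
CDC6: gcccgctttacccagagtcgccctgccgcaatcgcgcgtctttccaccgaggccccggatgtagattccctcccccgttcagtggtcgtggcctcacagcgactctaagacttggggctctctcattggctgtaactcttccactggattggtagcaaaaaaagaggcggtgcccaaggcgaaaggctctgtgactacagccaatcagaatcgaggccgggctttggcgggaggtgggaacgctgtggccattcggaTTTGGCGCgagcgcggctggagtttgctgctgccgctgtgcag
TYMS: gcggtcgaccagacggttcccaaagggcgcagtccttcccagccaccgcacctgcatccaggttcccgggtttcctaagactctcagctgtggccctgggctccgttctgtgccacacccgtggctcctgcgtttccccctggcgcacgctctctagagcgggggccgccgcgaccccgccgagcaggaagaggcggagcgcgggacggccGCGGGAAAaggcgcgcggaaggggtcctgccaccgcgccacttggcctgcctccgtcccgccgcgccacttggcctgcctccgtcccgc
CDC6 loads the helicase onto origins and TYMS makes thymidylate. The element stood in 11 of the 21 risen replication genes with a promoter in the table (52.4%) and in 3.69% of all 10259. The members of the list were chosen as genes of replication, many of which are textbook E2F targets, so the share describes the list.

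Of 30 genes of mitosis 10 fell and 2 rose, with a median of -0.036. CCNB1, the mitotic cyclin, had 247 and 239 CPM at 12 h and 307, 288 and 301 CPM at 6 h (log2 fold change -0.30 ± 0.054 (SE)). CENPA, the histone of centromeres, fell by 0.25 and the kinase PLK1 by 0.20. The kinase BUB1 rose by 0.21 and the motor KIF11 by 0.13; the call of KIF11 ended without any 1 of the 5 libraries. Among regulators of the cycle, CCND3, the D cyclin of B cells, had 165 and 165 CPM at 12 h and 105, 104 and 106 CPM at 6 h (log2 fold change 0.65 ± 0.051 (SE)), RB1, the restrainer of E2F, rose by 0.38, and the CDK inhibitor CDKN1A by 0.33. Bulk RNA does not tell a shift in the share of cells in a phase from a shift in RNA per cell.

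Under SREBP, 12 of 23 genes for sterols were lower at 12 h and 1 higher, and genes for fatty acids moved in both directions. HMGCS1, which starts the mevalonate path, had 80.5 and 79.2 CPM at 12 h, against 114, 118 and 116 CPM at 6 h (log2 fold change -0.54 ± 0.041 (SE), adjusted p = 2.58e-10). SREBF2, the master factor, fell by 0.40, INSIG1, which holds SREBP in the endoplasmic reticulum, by 0.42, and DHCR7, the last enzyme of synthesis, by 0.43. The genes of cholesterol synthesis and uptake had a median of -0.17, and the 1 that rose was EBP, a sterol isomerase, by 0.22. The desaturase FADS2 had 7.26 and 7.69 CPM at 12 h and 16.4, 16.6 and 14.7 CPM at 6 h (log2 fold change -1.08 ± 0.09 (SE)), SCD fell by 0.37 and FASN, fatty acid synthase, by 0.34, whereas the desaturase SCD5 rose by 0.36 and ACSS2, which makes acetyl-CoA, by 0.37, a call that ended without replicate 2 at 12 h. Of 13 genes of fatty acid synthesis 5 fell, 2 rose and 6 were not called, with a median of 0.043. Later libraries held more: HMGCS1 had 132 to 139 CPM at 24 h and 202 to 211 CPM at 48 h, and FADS2 26.6 to 30.8 and 102 to 113 CPM. With all 24 libraries in the fit 7 of the sterol genes fell.

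Genes of amino acid shortage moved in both directions. Some stress members rose: CHAC1, which degrades glutathione, had 7.84 and 8.95 CPM at 12 h, against 3.96, 3.91 and 4.10 CPM at 6 h (log2 fold change 1.08 ± 0.12 (SE), adjusted p = 1.23e-07), and SESN2, an inhibitor of mTORC1, had 45.6 and 47.6 CPM at 12 h and 33.4, 34.7 and 32.00 CPM at 6 h. DDIT4, another inhibitor of mTORC1, had 30.9 and 50.2 CPM at 12 h, with its libraries far apart, and 20.4, 24.1 and 16.6 CPM at 6 h; its log2 fold change of 1.02 was 0.62 without replicate 2 at 12 h. Some synthesis enzymes fell: PSAT1 of the serine path by 0.34, ASNS, asparagine synthetase, by 0.38, and GPT2, mitochondrial alanine transaminase, by 0.58. Of 33 ATF4 targets 14 rose (3 at least 1.5-fold) and 8 fell (2 at least 1.5-fold). Their changes ran from -0.86 to 1.08, with a median of 0.042. Without replicate 2 at 12 h 6 rose, and by limma on TPM 8 did. Whether the list divides by function was not tested.

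Hypoxia and glycolysis genes also moved in both directions. CA9, a carbonic anhydrase of the cell surface, had 2.50 and 3.83 CPM at 12 h, against 14.4, 14.1 and 13.01 CPM at 6 h (log2 fold change -2.10 ± 0.16 (SE)), and then 9.54 to 13.3 CPM at 24 h and 63.5 to 80.7 CPM at 48 h. The mitophagy receptor BNIP3L fell by 0.75 and the collagen hydroxylase P4HA2 by 1.29. Of 21 hypoxia genes 6 fell and 4 rose, DDIT4 with BNIP3 by 0.42, P4HA1 by 0.41 and INSIG2 by 0.32; INSIG2 rose by 0.20 without replicate 1 at 6 h and lost its call without replicate 2 at 12 h (edgeR adjusted p = 0.0694). PFKFB4, which sets fructose 2,6-bisphosphate, had 7.23 and 11.1 CPM at 12 h and 3.21, 3.69 and 3.69 CPM at 6 h (log2 fold change 1.40 ± 0.21 (SE)) and reached 152 to 156 CPM at 48 h. PFKM, the muscle form of phosphofructokinase, rose by 0.68 and hexokinase HK1 by 0.49, whereas the liver form PFKL fell by 0.51 and the aldolase ALDOC by 0.89. Of 23 glycolysis genes 7 rose and 5 fell, the other fallen ones being PGK1, ALDOA and SLC16A1; 3 fell without replicate 1 at 6 h, or without either 12 h library.

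**Figure D3:**
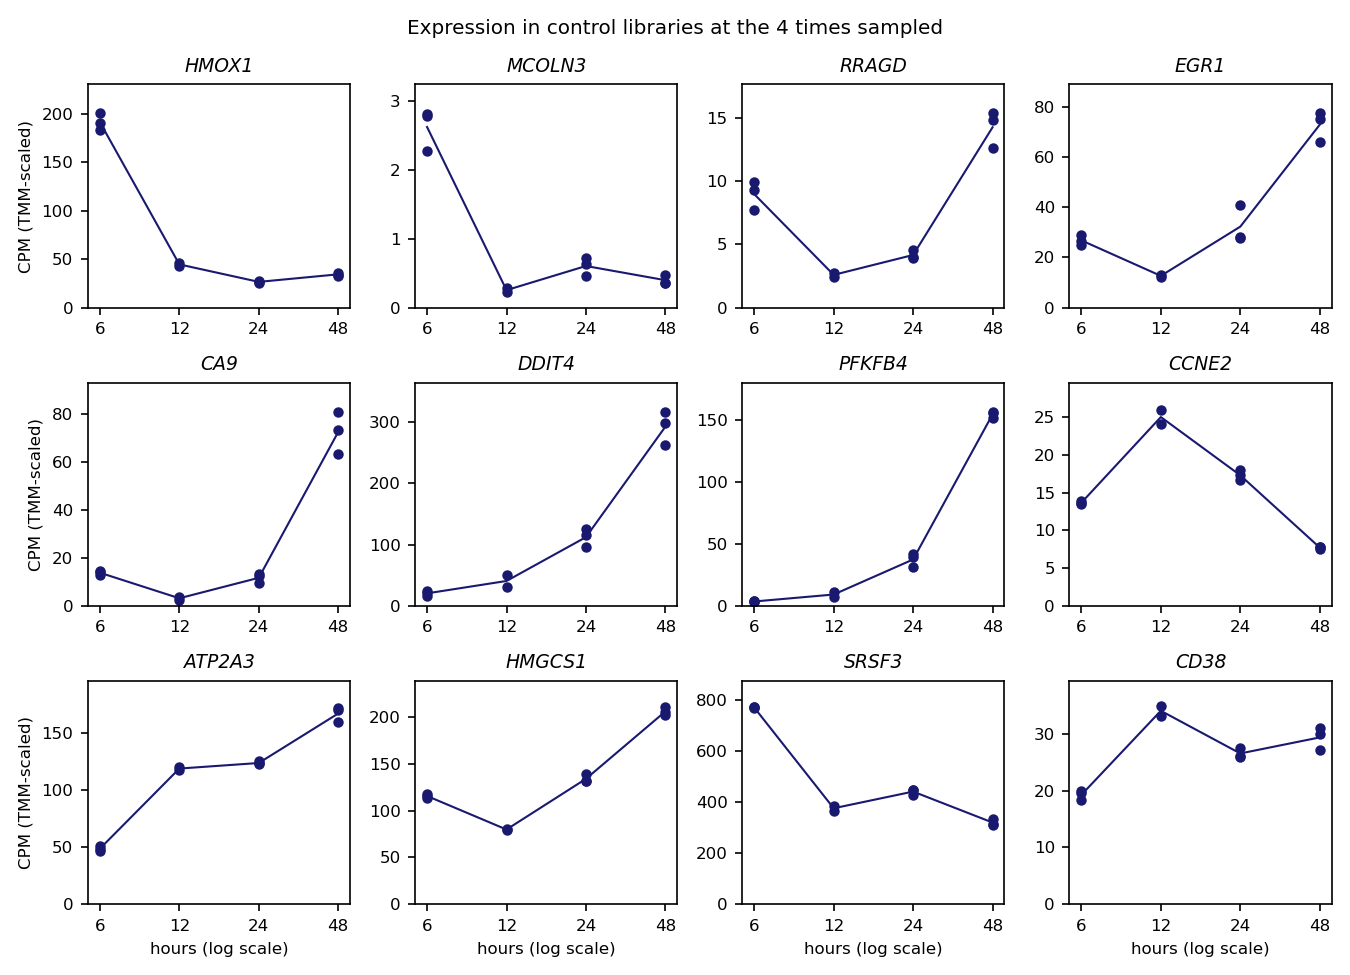
Expression of 12 genes in the control libraries at 6, 12, 24 and 48 h, in TMM-scaled CPM, with hours on a log scale; points are libraries (2 at 12 h, 3 at the other times) and lines join group means. HMOX1, MCOLN3 and SRSF3 stayed low after 12 h, EGR1, CA9, RRAGD and HMGCS1 were lowest at 12 h and higher again at 48 h, and CCNE2 and CD38 were highest at 12 h.

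Chaperone genes changed modestly. HSPA8, the constitutive HSP70, had 5238 and 4904 CPM at 12 h and 7679, 7301 and 7695 CPM at 6 h (log2 fold change -0.58 ± 0.062 (SE)), its partner DNAJB1 fell by 0.45 and HSPA1B, a near-identical copy of HSPA1A, by 0.52. Of 22 heat shock genes 5 fell, the others being HSPB1 and BAG3, and 7 rose, among them CHORDC1, an HSP90 partner, by 0.36. BAG3 lost its call without replicate 2 at 12 h. Of 22 genes of the unfolded protein response 7 rose and 2 fell: XBP1, its transcription factor, had 136 and 140.2 CPM at 12 h and 97.98, 97.9 and 98.3 CPM at 6 h (log2 fold change 0.50 ± 0.046 (SE)), the disulfide isomerase PDIA4 rose by 0.30, CALR fell by 0.24 and HSPA5 by 0.16, its call ending without replicate 2 at 12 h.

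NF-kB drives survival in this lymphoma type, and its targets were partly lower at 12 h. NFKBID, a nuclear inhibitor protein that NF-kB itself induces, had 95.2 and 97.04 CPM at 12 h, against 192, 197 and 182 CPM at 6 h (log2 fold change -0.98 ± 0.047 (SE), adjusted p = 3.21e-14). NFKBIE fell by 0.45 and the chemokine CCL22 by 0.35, while NFKBIA, the classical inhibitor, had 107 and 100.4 CPM at 12 h and 109, 107 and 105 CPM at 6 h and was not called. Of 32 targets 14 fell and 5 rose, with a median of -0.15. The risen ones were BIRC3, an inhibitor of apoptosis, by 0.46, the adhesion molecule ICAM1 by 0.46, the receptor CD40 by 0.24, NFKBIZ by 0.28 and the chemokine CCL17. CCL17 had 0.843 and 0.358 CPM at 12 h and 0.169, 0.220 and 0.313 CPM at 6 h, a log2 fold change of 1.28 that was 0.59 and uncalled without replicate 1 at 12 h. With all 24 libraries in the fit 4 fell.

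Interferon-stimulated genes rose in part: 9 of 26 were higher (34.6%, beside 21.1% of all genes tested) and 3 lower (11.5%, beside 18.5%). Their median was 0.14. ISG20, an RNA exonuclease, had 75.9 and 80.4 CPM at 12 h and 44.8, 45.3 and 45.9 CPM at 6 h (log2 fold change 0.79 ± 0.069 (SE)), and ISG15, a ubiquitin-like modifier, had 17.05 and 18.6 CPM at 12 h and 10.3, 11.3 and 12.01 CPM at 6 h. OAS1 rose by 0.56 and STAT2 by 0.40. MX1 fell by 0.37, and the partners PARP9 and DTX3L, which share a promoter region, by 0.26 and 0.24. The call of DTX3L ended without replicate 1 at 12 h.

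B cell genes were higher in part, while genes of antigen presentation on MHC class II were mostly lower. BTK, the kinase below the antigen receptor, had 443 and 438 CPM at 12 h, against 309, 301 and 297 CPM at 6 h (log2 fold change 0.54 ± 0.037 (SE), adjusted p = 3.31e-11). Its substrate PLCG2 rose by 0.34, and the transcription factors SPI1 and EBF1 by 0.56 and 0.42; the receptor chain CD79B, with 1355 and 1379 CPM at 12 h and 1278, 1284 and 1261 CPM at 6 h, was not called. Of 30 B cell genes 10 rose (33.3%, beside 21.1% of all genes tested) and 4 fell (13.3%, beside 18.5%). The fallen ones were SPIB by 0.20, MS4A1 by 0.20, IKZF3 by 0.16 and CR2, at under 1 CPM, by 1.16. Of these 4, only SPIB kept its call without each of the 5 libraries in turn, and 6 genes rose by limma on TPM.

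The markers of plasma cell differentiation did not move as a group. SLAMF7, a surface receptor, had 46.5 and 48.2 CPM at 12 h and 101, 95.7 and 102 CPM at 6 h (log2 fold change -1.07 ± 0.063 (SE)), whereas CD38, an enzyme that consumes NAD, had 34.97 and 33.3 CPM at 12 h and 18.3, 19.97 and 19.6 CPM at 6 h (log2 fold change 0.82 ± 0.069 (SE)). Of 14 such genes 4 rose, XBP1, CD38, MZB1 by 0.37 and SDC1 at under 1 CPM. Another 5 fell, SLAMF7, TNFRSF17 by 0.46, ELL2 by 0.34, DERL3 by 0.32 and IRF4, the master factor, by 0.30. SDC1 lost its call without any 1 of the 5 libraries and DERL3 without any 1 of 3.

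HLA-DQB1, a class II chain, had 43.4 and 48.2 CPM at 12 h, against 80.1, 80.1 and 83.2 CPM at 6 h (log2 fold change -0.82 ± 0.057 (SE), adjusted p = 3.97e-11). CIITA, the coactivator that class II genes require, fell by 0.53, HLA-DRA by 0.30 and HLA-DRB1 by 0.29. Of 16 class II genes 9 fell, or 5 without replicate 2 at 12 h, with a median of -0.27. The 3 that rose were RFXANK by 0.41 and RFXAP by 0.33, subunits of the factor at class II promoters, and HLA-DMB by 0.21, whose call ended without any 1 of 4 libraries. HLA genes are variable and alike, so counts against the reference are uncertain. In the fit of all 24 libraries 1 fell.

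The DMF cultures went through the same hours with no library shared with the control cultures, and their replicate 3 at 12 h was left out likewise. In them 400 genes were at least 1.5-fold higher (2.94%) and 1186 at least 1.5-fold lower (8.72%) at 12 h than at 6 h. Of the 756 genes that fell at least 1.5-fold in control cultures, 449 also did so with DMF (59.4% of the control list and 37.9% of the DMF list), and of the 305 that rose, 101 did (33.1% and 25.2%). HMOX1 changed by -1.60 with DMF and -2.10 in control cultures, EGR2 by -1.18 and -1.17, SFPQ by -0.94 and -0.99, and HNRNPL by 0.81 and 0.84. Some gene groups were less alike. With DMF 4 of 33 ATF4 targets rose and 29 fell (median -0.47), 10 of 32 replication genes rose and 8 fell, and 6 of 26 interferon genes rose and 8 fell. Others were close to control: 32 of 36 proteasome subunits rose and 3 fell, and 21 of 30 oxidative phosphorylation genes rose and 0 fell. Differences between groups were not tested. Across the 13606 genes the changes had a Pearson r of 0.45 and a Spearman rho of 0.56, as a description over genes that are not independent.

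The difference between the changes passed a test against 1.5-fold (edgeR glmTreat, adjusted p under 0.05) in 39 genes, 5 with a higher change in DMF cultures (0.0367%) and 34 with a lower one (0.25%). CHAC1 had 6.48 and 6.58 CPM at 12 h and 10.7, 11.1 and 11.4 CPM at 6 h with DMF, a log2 change of -0.76 where control cultures had 1.08 (difference -1.84, adjusted p = 8.52e-06). ATF3 changed by -1.11 with DMF and 0.45 in control cultures, and SESN2 by -0.57 and 0.49, so that these 3 genes rose in control cultures and fell with DMF. DDIT4 rose in both, by 0.46 with DMF and 1.02 in control cultures, and its difference was not called. HSPA1B changed by -2.05 with DMF and -0.52 in control cultures, and SRSF7 by -1.52 and -0.48. The 5 genes with a higher change with DMF were DST, NMRK2, UPP1, MAP1A and RHOBTB2. RHOBTB2 had 255 and 251 CPM at 12 h and 389, 392 and 374 CPM at 6 h with DMF, and 43.7 and 44.3 CPM at 12 h and 123, 124 and 121 CPM at 6 h in control cultures (difference 0.87, adjusted p = 0.00269).

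**Figure D4:**
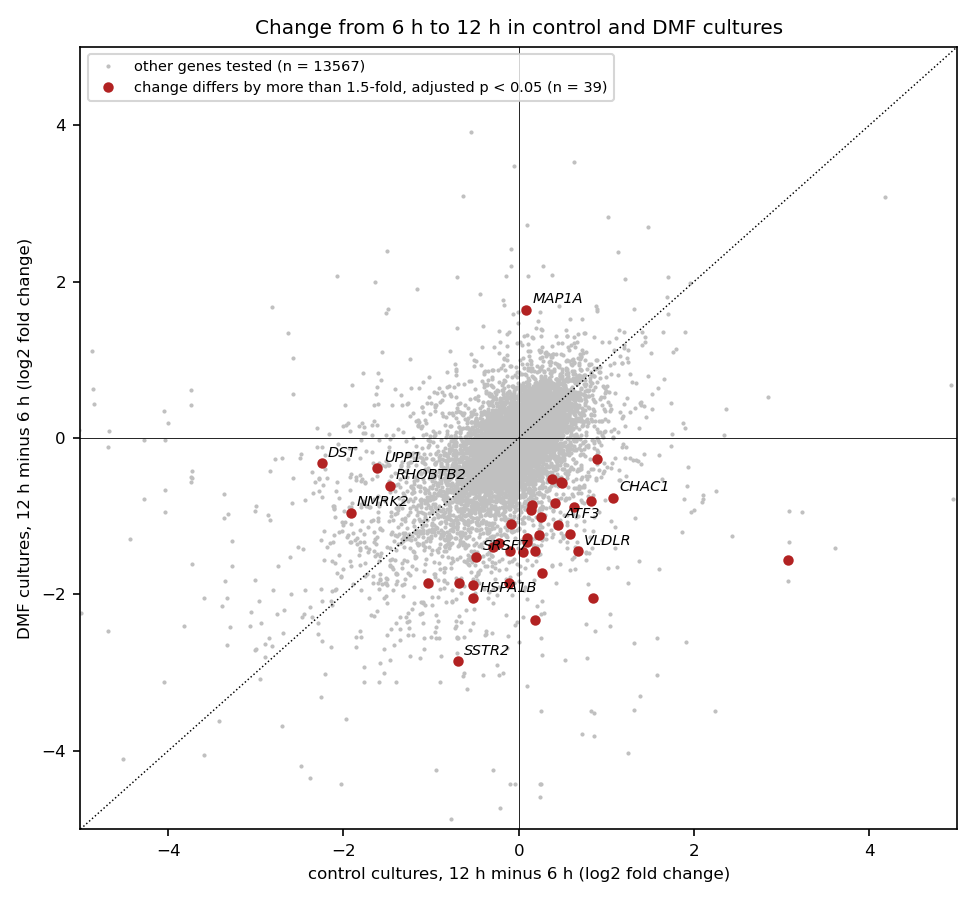
Change between 6 h and 12 h in control cultures (x axis) and in DMF cultures (y axis), each as 12 h minus 6 h in log2 fold change, for the 13606 genes tested; red points are the 39 genes whose changes differ by more than 1.5-fold, the dotted line marks equal change, and 22 genes beyond 5 on either axis are not drawn. Most red points lie below the dotted line.

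Replicate 3 at 12 h stood apart from the others of its group. Its ribosomal protein genes took 26.3% of counts, against 10.02% and 9.893% in replicates 1 and 2, and the effective length of a transcript, averaged over counts, was 1902 bases, against 3043 and 3059. HMOX1 had 66.2 CPM in it, SQSTM1 503 CPM, SFPQ 429 CPM and ATP2A3 153 CPM, all on the side of replicates 1 and 2. CTSA with 179 CPM, OPTN with 78.7 CPM and NPC2 with 47.1 CPM lay on the other side of the 6 h libraries. Of the genes called higher, 66.9% lay on the side of the call in replicate 3, and of those called lower 68.7%. The share over all genes tested was 60.6% for replicate 3. In the fit of all 24 libraries, which holds it, fewer members of other groups were called as well: 1 ribosome assembly gene, 2 mitosis genes, 1 metal gene, 1 plasma cell gene, 4 ATF4 targets and 0 glycolysis genes were lower, while 7 ATF4 targets, 5 interferon genes, 5 B cell genes, 4 heat shock genes and 2 hypoxia genes were higher. A weak trend with length remained in replicates 1 and 2: the median log2 fold change was 0.066 in the shortest of 5 length bins and -0.065 in the longest, where 1.48 and -1.16 were found for replicate 3. The called shares moved with it: 26.9% of genes in the shortest bin were higher and 11.1% lower at 12 h, against 14.1% and 24.6% in the longest. The part of length in the counts of the gene groups was not tested.

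**Figure D5:**
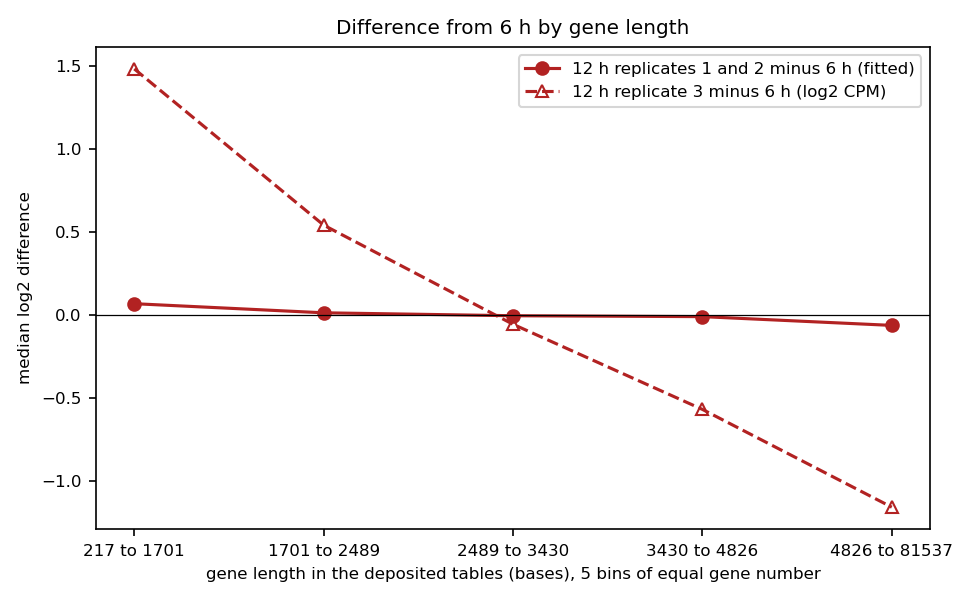
Median log2 difference from the 6 h libraries in 5 bins of gene length (x axis, bases) for replicates 1 and 2 at 12 h (filled points, fitted log2 fold change) and for replicate 3 (open triangles, log2 CPM). The filled points stay between 0.066 and -0.065, while the triangles run from 1.48 to -1.16.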

How the data were processed

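The authors deposited, as RSEM writes it, 1 gene table per library with expected counts, TPM and FPKM; the FPKM were not used. HISAT2, HISAT and RSEM on GRCh38.p12 are named in the submitters' processing notes; their versions and the strand setting are not given in the sources used here, so reads of overlapping and antisense genes cannot be told apart. The deposited expected counts were rounded to whole numbers and tested with edgeR 4.0.16 (R 4.3.3): TMM scaling, filterByExpr, quasi-likelihood fit of 22 libraries in 8 groups (14 residual degrees of freedom), without replicate 3 at 12 h of either treatment, and Benjamini-Hochberg adjustment over 13606 genes. CPM values are TMM-scaled. The change in DMF cultures was set against that in control cultures with glmTreat and a fold of 1.5.

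The alternatives were the size factors and Wald test of DESeq2 1.42.0, no filter, a block on replicate number, all 24 libraries, the compared groups alone, limma 3.58.1 on log2 of the deposited TPM plus 1, and each library left out. On simulated counts for this comparison, over 13101 genes, 92.5%, 98.5% and 100% of genes changed 1.5-, 2- and 4-fold were called, with 5 false calls. Only 67, 67 and 66 genes were changed, none of the lowest expression, and the others kept the 6 h control mean in every group. In the data 39.6% of genes were called, so these shares need not hold there. The test of the DMF difference against 1.5-fold called 0%, 68.7% and 100% of the changed genes, with 0 false calls.

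The comparison, the 37 gene lists and the panel were chosen with earlier results of these data known. Genes were named as the 15 highest and 15 lowest changes with at least 2 CPM and no overlap, up to 4 called members of each list by p, a panel of 56 genes and 5 genes in each direction of the DMF difference; 58 of the 188 named genes lie outside this rule and were chosen after their values were seen. Of the panel 12 genes rose, 21 fell, 21 were not called and the rest were not tested. Promoters are RefSeq's and were searched for 1 motif per group. Besides the motifs given above, an antioxidant element was searched in fallen NRF2 targets. It stood in 2 of 9, GCLM and TXNRD1 (22.2%), and in 15% of all 10259 promoters. A sterol element stood in 1 of 8 fallen genes of cholesterol synthesis and uptake, SREBF2 (12.5%), and in 1.19% of all.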

Additional observations from a re-analysis of the deposited data

Results flagged for a closer look

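The change between 6 h and 12 h differed between DMF and control cultures by more than 1.5-fold in 39 genes, 5 with a higher and 34 with a lower change in DMF cultures (edgeR glmTreat, Benjamini-Hochberg adjusted p under 0.05). Differences are given on the log2 scale as the change in DMF cultures minus the change in control cultures. Among stress genes the difference was -1.84 for CHAC1, -1.56 for ATF3, -1.05 for SESN2 and -1.53 for HSPA1B, the last with a near-identical copy. It was -1.03 for SRSF7 and -0.82 for SRSF3. The lowest among genes named by rule were -2.52 for GRB10, -2.15 for SSTR2, -2.13 for VLDLR and -2.00 for ZBED3, all at under 10 CPM in each of the 4 groups compared. The higher changes were 1.93 for DST, 1.56 for MAP1A, 1.22 for UPP1, 0.96 for NMRK2 and 0.87 for RHOBTB2. MAP1A, a microtubule protein, had 34.8 and 32.8 CPM at 12 h and 10.8, 11.8 and 9.90 CPM at 6 h with DMF, and 2.04 and 2.58 CPM at 12 h and 2.20, 1.89 and 2.44 CPM at 6 h in control cultures. The calls of DST, NMRK2, UPP1, MAP1A and SRSF3 each ended without at least 1 of the 10 libraries compared, and that of GRB10 without replicate 2 at control 12 h. By DESeq2's Wald test DST, NMRK2, UPP1 and SRSF3 were not called either. With all 24 libraries the calls of DST, NMRK2, UPP1, MAP1A and SRSF3 ended, as did those of RHOBTB2, SRSF7, VLDLR, ZBED3 and GRB10. Limma on log2 TPM did not call DST, NMRK2, UPP1, MAP1A, RHOBTB2, GRB10, SSTR2, VLDLR or ZBED3.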

How the results depend on the processing

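Of the 5393 calls between 12 h and 6 h, the same gene was called in the same direction for 5296 with DESeq2's size factors, 5072 without a filter on low counts, 4946 with DESeq2's Wald test, 5229 with the compared groups alone, 3921 with limma on log2 TPM and 3629 to 4640 when 1 of the 5 libraries was left out, fewest without replicate 2 at 12 h. With a replicate block 5051 were, 2746 genes being higher and 2397 lower; same-numbered differences correlated at 0.0251 over 2 shared numbers, so the numbers were not treated as pairs; under the block the DMF differences of NMRK2 and SRSF3 and the changes of CCL17, KIF11, WDR12 and SDC1 were not called. With all 24 libraries 2364 were kept and 853 changed direction: 1604 genes were higher, 1065 of them at least 1.5-fold, and 918 lower, so that 63.6% of calls were higher, against 53.2% above. Limma on TPM gave 100 genes at least 1.5-fold higher and 297 lower; its pseudocount of 1 shrinks low genes. The counts for the DMF difference were 2 higher and 22 lower by the Wald test, 0 and 8 with all 24 libraries, 0 and 7 with limma, 9 higher with the compared groups alone, and 1 to 5 higher with 1 library left out. Of 183 named genes called between 12 h and 6 h, 53 lost the call and 22 turned with all 24 libraries, against 1 to 8 that lost it and 0 that turned under the other fits and scalings. Including both replicates 3 turned the log2 fold change of these named genes: NFKBIE (0.28), CCL22 (0.040), PFKL (0.048), CALR (0.41), MT2A (0.61), MT1F (0.39), MT1X (0.56), MCM2 (-0.057), BUB1 (-0.060), RB1 (-0.065), HLA-DRB1 (0.50), ZBED3 (-0.017), MAP1A (-0.095), KIF11 (-0.10), NFKBIZ (-0.11), RPL12 (0.73), POLR1C (0.23), FTL (0.60), NPC2 (0.27), ALDOA (0.63), HSPB1 (0.96), TNFRSF17 (0.30), DERL3 (0.39), FTH1 (0.75). With 1 library left out it spanned 0 for NFKBIA (-0.086 to 0.0016), GRB10 (-0.26 to 0.49) and MAP1A (-0.11 to 0.23), none of them called, and was turned without replicate 2 at 12 h. What depth limits was not tested apart from the number of libraries, 2 at 12 h. On simulated counts of this depth and number, in which far fewer genes changed than were called here, 92.5% of 1.5-fold changes were called.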

Other observations

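Genes of TGF-beta signalling were lower in part at 12 h. SMAD7, the inhibitor that the pathway induces, had 1.23 and 1.35 CPM at 12 h and 2.54, 2.86 and 2.78 CPM at 6 h (log2 fold change -1.07 ± 0.19 (SE)), the receptor TGFBR1 fell by 0.66, the corepressors SKI and SKIL by 0.51 and 0.40, and the ligand TGFB1 by 0.39. Of 12 genes tested 5 fell and 3 rose, the risen ones being ID1, ID3 and TGIF1.

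Clock genes moved as well. ARNTL, the activator, had 19.8 and 18.8 CPM at 12 h and 14.3, 12.1 and 12.7 CPM at 6 h (log2 fold change 0.56 ± 0.073 (SE)) and the kinase CSNK1E rose by 0.40, while the repressor NR1D1 fell by 0.43 and TEF by 0.47. Of 19 clock genes 7 fell, or 4 without replicate 1 at 12 h, and 3 rose, with PER1 the third. ACTG1, cytoplasmic actin, had 4941 and 4722 CPM at 12 h and 6633, 6663 and 6694 CPM at 6 h and fell by 0.46. DDB2, a p53 target of DNA repair, rose by 0.78, and the chemokine CXCL16, of scavenger receptor type, fell by 1.32.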
